A study of Mus musculus with 8 samples.

Results

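The myostatin, activin and TGF-beta pathway was examined at 9 of its genes for association with myogenin and p300 in differentiating myoblasts. The genes were those of the ligands Mstn, Inhba, Tgfb1 and Tgfb2, the ligand antagonist Fst, the receptors Acvr2b and Tgfbr1, and the intracellular Smad proteins Smad3 and Smad7. They were chosen by name, as 9 of 22367 protein-coding genes, and every ChIP-seq interval that reached within 50 kb of a gene body was taken as belonging to that gene. The 4 lists of called intervals placed 85 intervals at these genes. Myogenin and the histone acetyltransferase p300 were each immunoprecipitated from C2C12 cells, an established mouse myoblast line derived from strain C3H, after 24 h in differentiation medium. Control cultures (Ctl) received no drug, and treated cultures (Bex) received 50 nM bexarotene, an agonist selective for the retinoid X receptor (RXR), from the induction of differentiation. Each of the 4 lists came from 1 library of 1 cell line, so the spread between cultures is unknown and no difference between conditions was tested. The input and H3K27me3 libraries among the 8 samples of the series were not used here.

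TGF-beta family ligands are secreted dimers that bring type II and type I receptor kinases together at the cell surface. The type I receptor then phosphorylates receptor-regulated Smad proteins such as Smad3, which enter the nucleus with Smad4, while Smad7 blocks the receptor and closes a negative feedback loop. Myostatin is known as a restraint on muscle mass, follistatin binds and neutralizes myostatin and activins, and TGF-beta itself holds back myoblast differentiation. Myogenin is a basic helix-loop-helix factor of terminal muscle differentiation that recognizes the E-box CANNTG, and p300 is a coactivator whose intervals are commonly used to mark enhancers.

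The central 100 bases of 8 myogenin intervals are shown first, so that the letters behind the E-box counts can be read, with examples of each binding class. Not every interval with an E-box or with p300 is shown, and of the 3 intervals unique to control only the one at Fst is. All are on the plus strand of mm9, and capitals mark the letters counted as an E-box in what follows. These were CAGCTG, which reads alike on both strands, together with the non-palindromic word CACCTG read on either strand. Each lay outside untranslated sequence. An interval called in both conditions is shown at its control center.
Tgfb2, upstream, shared, chr1:188539277-188539376: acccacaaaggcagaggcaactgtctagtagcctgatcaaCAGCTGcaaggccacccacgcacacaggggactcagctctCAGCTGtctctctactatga
Fst, upstream, shared, chr13:115278633-115278732: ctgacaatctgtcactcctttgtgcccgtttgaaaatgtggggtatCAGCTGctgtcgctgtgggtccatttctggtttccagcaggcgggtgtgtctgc
Fst, downstream, unique to control, chr13:115237374-115237473: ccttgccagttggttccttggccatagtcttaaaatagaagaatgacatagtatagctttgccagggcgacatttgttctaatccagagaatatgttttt
Acvr2b, intron 1, unique to bexarotene, chr9:119318575-119318674: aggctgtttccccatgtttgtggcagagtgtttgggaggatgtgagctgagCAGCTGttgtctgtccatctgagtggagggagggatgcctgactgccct
Acvr2b, downstream near Exog, shared, chr9:119387632-119387731: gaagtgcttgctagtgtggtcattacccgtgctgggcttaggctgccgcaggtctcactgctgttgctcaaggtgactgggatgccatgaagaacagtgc
Smad3, intron 1, shared, chr9:63574508-63574607: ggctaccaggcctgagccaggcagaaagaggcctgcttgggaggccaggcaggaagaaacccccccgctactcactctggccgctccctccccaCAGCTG
Smad3, intron 1, shared, chr9:63550450-63550549: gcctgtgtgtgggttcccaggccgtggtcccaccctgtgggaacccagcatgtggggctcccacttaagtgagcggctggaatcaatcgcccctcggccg
Smad3, intron 1, unique to bexarotene, chr9:63591910-63592009: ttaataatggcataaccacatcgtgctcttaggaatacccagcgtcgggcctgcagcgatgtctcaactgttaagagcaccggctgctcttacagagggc

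The number of intervals at the 9 genes differed widely between genes, from 0 in every list at Mstn to 19 control p300 intervals at Smad3. In control cells, 9 myogenin and 46 p300 intervals lay within 50 kb of the genes, and with bexarotene there were 12 and 18. A control myogenin interval was found at 5 of the 9 genes and one called with bexarotene at 6, beside 32.3% and 32.9% of all protein-coding genes. For p300, the genes with an interval numbered 7 in control and 8 with bexarotene, against 53.8% and 35.2% of all protein-coding genes. The median gene of the 9 carried 1 myogenin interval in each condition, 4 p300 intervals in control and 1 with bexarotene. Across all protein-coding genes those medians were 0, 0, 1 and 0. An interval of either myogenin list was found at 6 genes and of either p300 list at 8, beside 41.4% and 56.8% of all genes. All 6 genes with myogenin also had p300, a combination found at 34.2% of protein-coding genes.

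**Figure D1:**
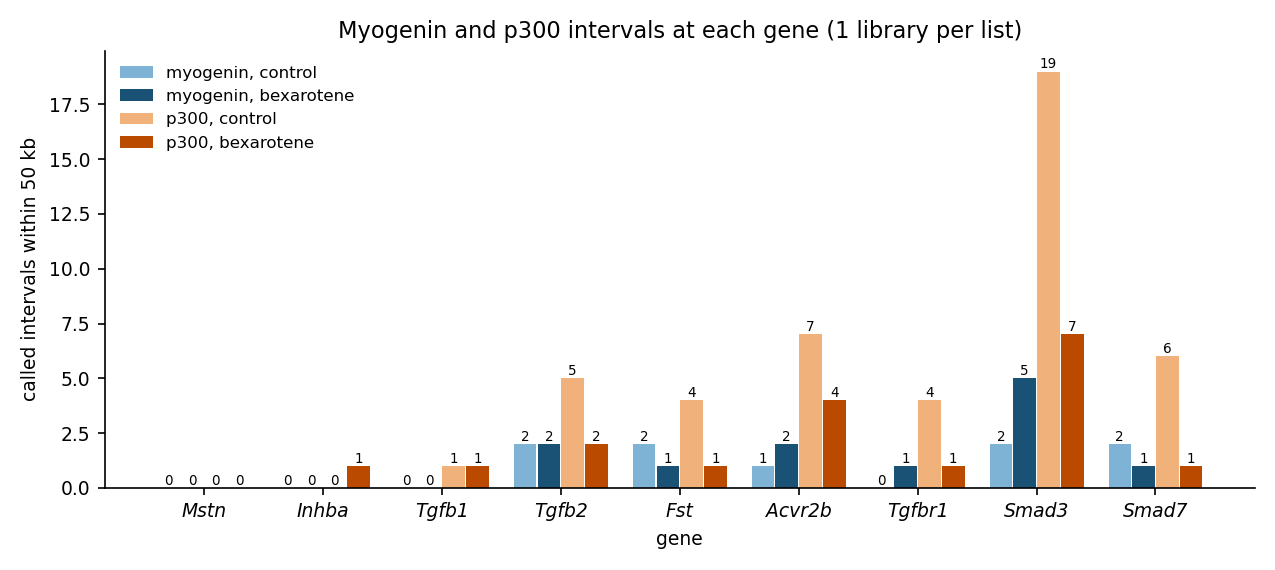
Bars give the number of called intervals of each list within 50 kb of each of the 9 genes (vertical axis, count; 1 library per list, hence no error bars). Mstn had none in any list, and Smad3 had the most in 3 of the lists, with 19 p300 intervals in control and 7 with bexarotene.

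Bexarotene-treated cells had 1.33 times as many myogenin intervals at the 9 genes as control cells, and 0.391 times as many p300 intervals. Without Smad3 there were 7 myogenin intervals in each condition, and no excess. The ratios were 1.12 and 0.415 for the whole lists, which hold 5912 and 6642 myogenin and 22051 and 9154 p300 intervals, control first. The p300 ratio at these genes thus lay close to that of the whole list. The lists give positions alone, so the depth of each library is unknown and its part in these counts was not tested. Among the 9 genes, 6 had more p300 intervals in control than with bexarotene (43.8% of all genes) and 1, Inhba, had more with bexarotene (4.59% of all genes). Tgfb1 had the same number in both and Mstn had none. For myogenin the directions were mixed. Fst and Smad7 had more intervals in control (15.0% of all genes), Acvr2b, Tgfbr1 and Smad3 had more with bexarotene (16.2% of all genes), and Tgfb2 had 2 in each.

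**Figure D2:**
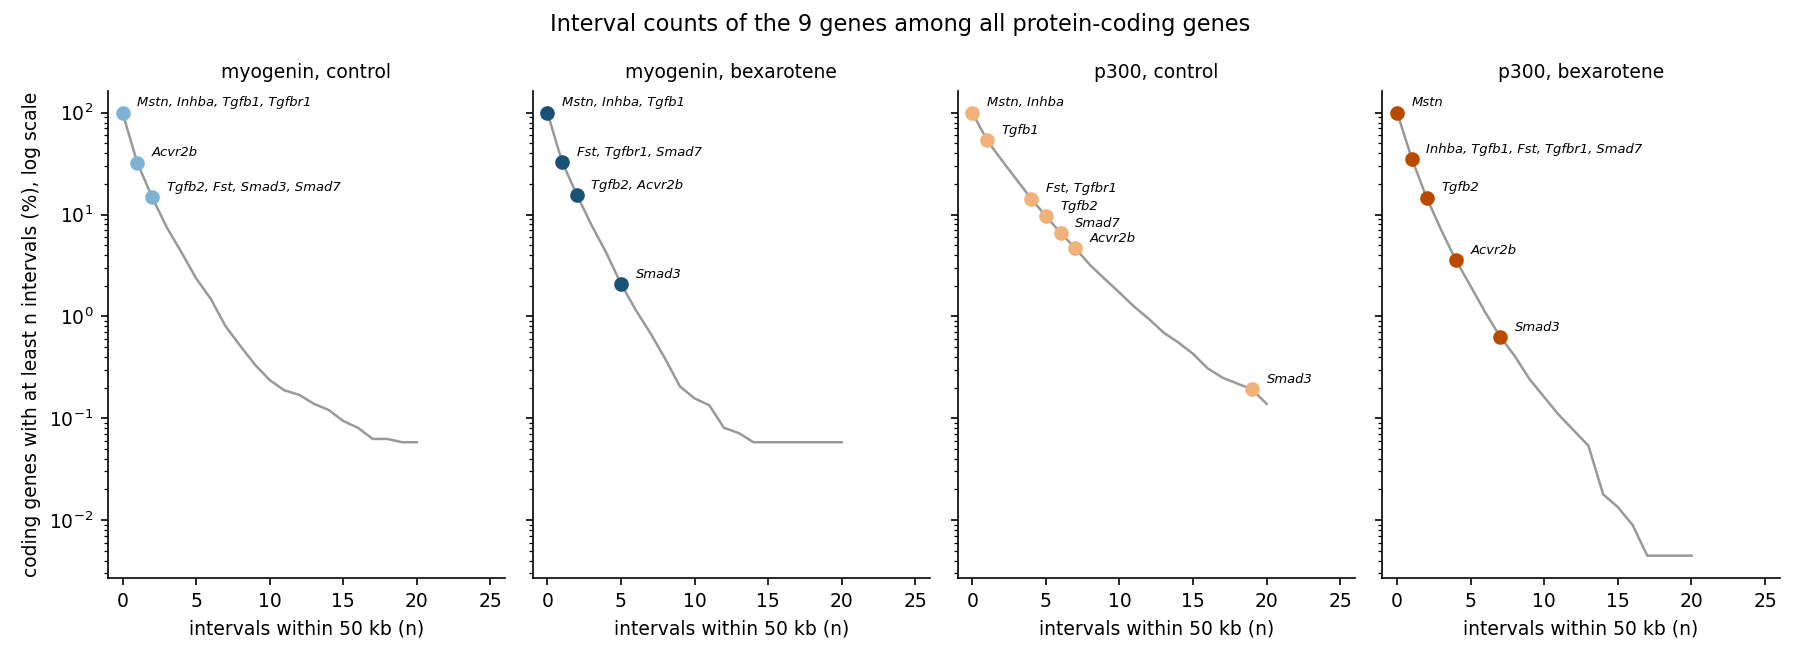
Each panel plots, for 1 list, the percentage of all 22367 protein-coding genes (vertical axis, log scale) that have at least the number of intervals on the horizontal axis. Points mark the 9 genes, and the curves are drawn to 20 intervals. Smad3 sits far along the curve in the control p300 panel, where 0.192% of genes have at least its 19 intervals.

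For each factor, intervals of the 2 conditions that had 1 bp or more in common were joined and classed as a shared region. The others were classed as unique to control or unique to bexarotene. Of the 15 myogenin regions at the 9 genes, 3 were unique to control (20%, 95% Wilson interval 7.05 to 45.2%), 6 were shared and 6 were unique to bexarotene (40% each, 19.8 to 64.3%). Over the genome these classes held 30.6%, 31.3% and 38.2% of myogenin regions. With intervals at the smallest length of their list left out and the rest classed again, 0 were unique to control, 4 shared and 3 unique to bexarotene. All 3 regions first unique to control and 5 of the 6 first unique to bexarotene were at that length. The control intervals of 2 shared regions were too, which moved these 2 to the class unique to bexarotene. No genome-wide shares of the classes are given under that filter. In the whole lists, 54.7% of control and 50.0% of bexarotene myogenin intervals were at the smallest length. Among the 48 p300 regions, 30 were unique to control (62.5%, 48.4 to 74.8%), 16 were shared (33.3%, 21.7 to 47.5%) and 2 were unique to bexarotene (4.17%, 1.2 to 14%). When each interval had to cover at least 50% of the other, 36 were unique to control, 10 shared and 8 unique to bexarotene. Under the 1 bp rule, the genome-wide shares of p300 regions were 62.1%, 30.1% and 7.76%, and none are given for the 50% rule. Each of these genome-wide shares fell inside the Wilson interval of the share at the 9 genes, which covers counting error only.

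The ligand genes ran from no interval at all to a pair of shared myogenin sites. Mstn, which encodes myostatin (chr1:53118507-53124923, plus strand), had 0 intervals in each of the 4 lists. Its closest myogenin intervals were 778 kb from the gene body in control and 723 kb with bexarotene, and had Stk17b as the nearest gene. The closest p300 intervals were 217 kb away in control, nearest to Hibch, and 591 kb away with bexarotene, nearest to Nab1. Binding too weak to be called cannot be seen in a list of positions.

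Inhba (chr13:16103684-16119044, plus strand), which encodes the subunit of activin A, had no myogenin interval and no control p300 interval. A p300 interval of 158 bp, the smallest length in its list, was called with bexarotene at chr13:16104089-16104246. Its center lay 483 bp past the start of the gene, in the untranslated part of exon 2 of an annotated transcript, and within 50 bp of it was 1 CAGGTG, which is CACCTG read on the minus strand. The closest control p300 interval was 81.7 kb from the gene body. Myogenin was nearest at 149 kb with bexarotene and at 513 kb in control. Inhba was thus the single gene of the 9 whose p300 count was higher with bexarotene.

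Tgfb1 (chr7:26472021-26490096, plus strand), the main TGF-beta ligand, had 1 shared p300 region and no myogenin. The p300 interval was 293 bp in control, at chr7:26496799-26497091, and 158 bp with bexarotene, at chr7:26496854-26497011. It lay 24.9 kb past the start of Tgfb1, beyond the end of the gene, and the nearest coding start was that of Ccdc97, 7.16 kb away. It held 2 AP-1 sequences and 1 Smad sequence within 100 bp of its center in each condition. A control myogenin interval 51.5 kb from the gene body, nearest to Hnrnpul1, fell just outside the window.

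Tgfb2 (chr1:188447065-188529871, minus strand) was the ligand gene with the most intervals, 2 of myogenin in each condition and 5 of p300 in control against 2 with bexarotene. Both myogenin regions were shared. One lay 9.46 kb upstream of the gene start in control, at chr1:188539241-188539412 (172 bp), and at chr1:188539238-188539492 (255 bp) with bexarotene. Its sequence above holds CAGCTG at 2 positions, 34 bases apart, starting 9 bases before and 31 bases after the control center. A p300 interval called in control alone, chr1:188539336-188539494, overlapped it. The other myogenin region, chr1:188573107-188573368 in control and chr1:188573131-188573448 with bexarotene, was centered on the start of the neighboring gene Rrp15, 43.4 kb upstream of Tgfb2, and overlapped no p300.

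The p300 intervals of Tgfb2 were spread over 132 kb in control. The longest, at 678 bp in control (chr1:188410703-188411380) and 415 bp with bexarotene (chr1:188410739-188411153), lay 119 kb past the gene start and beyond its end. A further shared region was in intron 1, 346 bp in control and 158 bp with bexarotene. The remaining 3 were unique to control, at 9.54 and 13 kb upstream and 95.9 kb downstream of the gene start. None of the 5 was within 1 kb of a start of Tgfb2.

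Follistatin and the receptors each combined distal p300 with 1 or 2 myogenin regions. Fst (chr13:115242470-115249159, minus strand) had 2 myogenin intervals in control and 1 with bexarotene, and 4 p300 intervals in control and 1 with bexarotene. A shared myogenin region 29.5 kb upstream was 381 bp in control, at chr13:115278492-115278872, and 215 bp with bexarotene, at chr13:115278553-115278767. Its CAGCTG began 3 bases before the control center. The p300 interval over it, chr13:115278353-115278795, was the longest of the gene at 443 bp and was called in control alone.

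The other myogenin interval of Fst showed the reverse arrangement, with myogenin in control alone over p300 called in both conditions. This myogenin interval, chr13:115237338-115237509, was 172 bp, the smallest length in its list, lay 11.7 kb past the gene start and held 2 CANNTG within 50 bp of its center but none of the E-box words counted here. The p300 intervals there were 435 bp in control, at chr13:115237367-115237801, and 391 bp with bexarotene, at chr13:115237365-115237755. Nearer to the gene, p300 unique to control lay 1.41 kb upstream of the start, with 1 E-box and 1 AGGTCA. The fourth control p300 interval, 38.6 kb past the gene start, had Ndufs4 as its nearest gene.

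Acvr2b (chr9:119311562-119342619, plus strand) encodes the activin type IIB receptor, through which myostatin and activins signal. It had 1 myogenin interval in control and 2 with bexarotene, and 7 p300 intervals in control against 4 with bexarotene. The myogenin interval within the gene was unique to bexarotene, at chr9:119318541-119318708 in intron 1, 7.06 kb past the gene start. Its CAGCTG began 2 bases after the center, it was 168 bp long, and no p300 interval overlapped it. A p300 interval unique to control lay in the same intron, 5.51 kb past the start.

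Most other intervals of Acvr2b lay in a cluster beyond the gene end, past the start of Exog, an endonuclease gene. All 4 p300 intervals with bexarotene were there, within 13.7 kb and with Exog as the nearest gene, and each overlapped a control interval. The shared myogenin region of the cluster, chr9:119387596-119387767 in control and chr9:119387527-119387797 with bexarotene, was 172 and 271 bp long. It overlapped p300 in both conditions, at chr9:119387429-119388006 (578 bp) and chr9:119387499-119387708 (210 bp). The longest control p300 interval, chr9:119382634-119383349, was 716 bp against 201 bp with bexarotene. Whether these intervals act on Acvr2b or on a neighbor cannot be read from positions.

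Tgfbr1 (chr4:47366094-47427803, plus strand) encodes the type I receptor kinase for TGF-beta. No control myogenin interval lay within 50 kb, the closest being 59.1 kb away near Col15a1. With bexarotene there was 1, at chr4:47412818-47412985 in intron 4, 46.8 kb past the gene start. A p300 interval unique to control, chr4:47412855-47413013, overlapped it. Of the other 3 control p300 intervals, those 10.5 and 16 kb upstream were unique to control, the former being the longest of the gene (chr4:47355499-47355709, 211 bp). The one 42.1 kb upstream, nearest to Col15a1, was shared and was 158 bp long with bexarotene, at chr4:47323906-47324063.

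**Figure D3:**
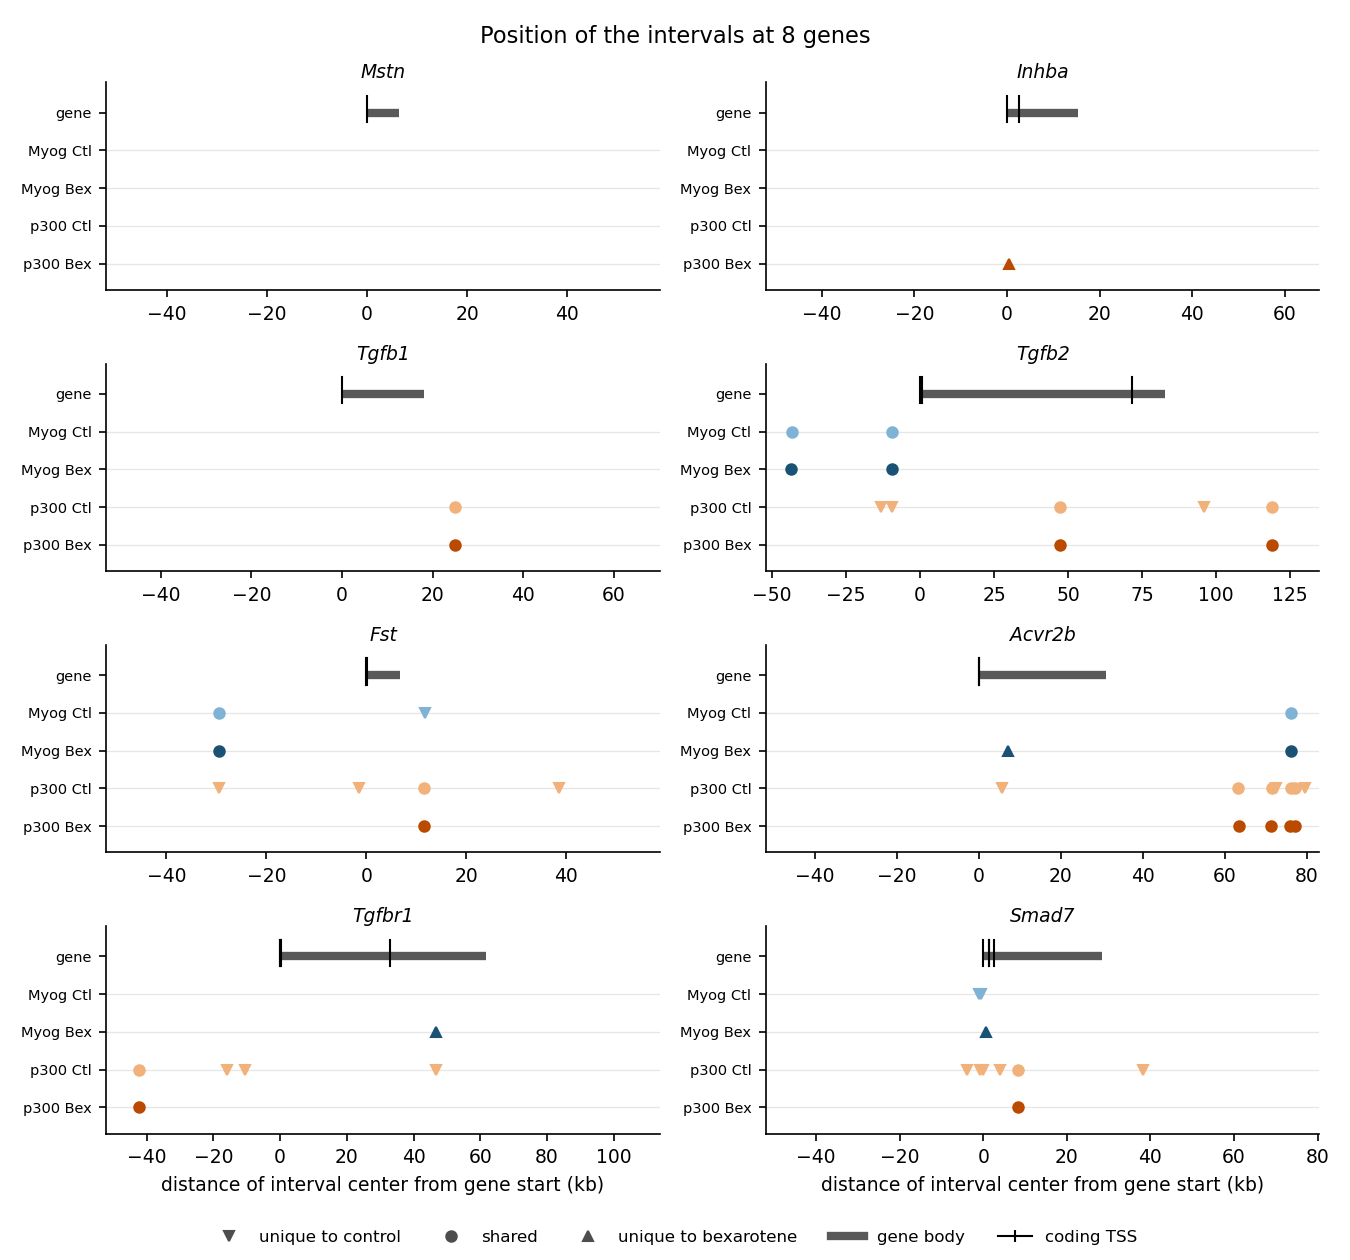
The center of each interval is plotted by its distance from the gene start in kb, in the direction of transcription, for 8 genes and in a row for each list. Marker shape gives the class, and the gray bar the gene body with its coding starts. Downward triangles, which mark regions unique to control, fill much of the control p300 rows at Tgfb2, Fst, Tgfbr1 and Smad7, whereas the p300 intervals of Acvr2b cluster beyond the gene.

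The Smad genes differed from each other in where their myogenin intervals lay, mostly within the gene body at Smad3 and around the gene start at Smad7. Smad3 (chr9:63494574-63605801, minus strand), the receptor-regulated Smad of the TGF-beta and activin branch, had 2 myogenin intervals in control and 5 with bexarotene, and 19 p300 intervals in control and 7 with bexarotene. Only 43 protein-coding genes, 0.192%, had at least 19 control p300 intervals, and 0.630% had at least 7 with bexarotene. The body of Smad3 is long at 111 kb, which widens its window to 211 kb against a median of 115 kb over all genes. Per 100 kb of window it had 9 control p300 intervals, a density reached by 0.340% of genes, and 3.31 with bexarotene, reached by 1.44%.

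Of the 19 control p300 intervals, 17 lay within the gene body and 12 of these in intron 1. The median gap between neighbors was 3.74 kb, with a smallest gap of 0.426 kb. By class, 13 of the 20 p300 regions of Smad3 were unique to control, 6 were shared and 1 was unique to bexarotene. The shared intervals had a median length of 428 bp in control and 250 bp with bexarotene, and those unique to control had a median of 207 bp. The longest was the same region in both conditions, chr9:63550177-63550863 (687 bp) in control and chr9:63550337-63550907 (571 bp) with bexarotene.

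**Figure D4:**
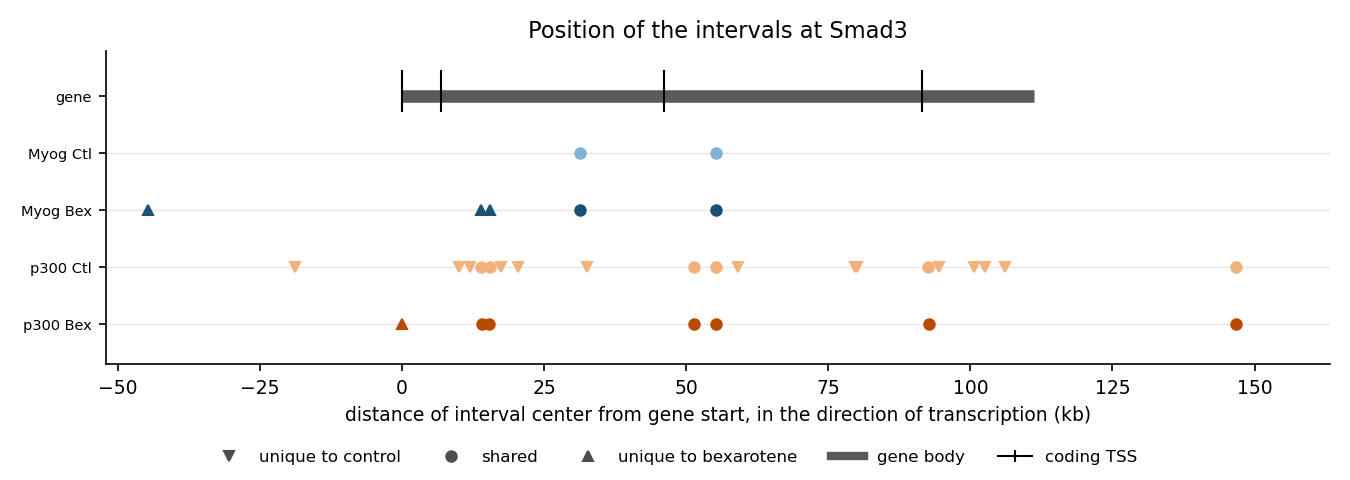
The center of each interval at Smad3 is plotted by its distance from the gene start in kb, in the direction of transcription, in a row for each list. Marker shape gives the class, and the gray bar the gene body with its 4 coding starts. Control p300 intervals cover the gene body, with 12 in intron 1, and the p300 interval at the gene start was called with bexarotene alone.

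The longest p300 region of Smad3 coincided with myogenin in both conditions. That myogenin region, chr9:63550316-63550682 (367 bp) in control and chr9:63550330-63550756 (427 bp) with bexarotene, lay 55.3 kb past the gene start in intron 1. It had no E-box within 50 bp of its center, and 1 in control and 2 with bexarotene over the whole interval. The other shared myogenin region, chr9:63574417-63574698 (282 bp) and chr9:63574346-63574724 (379 bp), was 31.3 kb past the start, held a CAGCTG and overlapped no p300.

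A further 3 myogenin intervals of Smad3 were unique to bexarotene. Those at chr9:63590271-63590438 and chr9:63591876-63592043 lay 15.4 and 13.8 kb past the gene start in intron 1 and were both 168 bp, the smallest length in the list. The former overlapped the control interval of a shared p300 region, chr9:63590204-63590544, but not its bexarotene interval, chr9:63590469-63590626. The latter held no E-box and 1 AP-1 sequence, and overlapped p300 in both conditions, at chr9:63591688-63592067 (380 bp) and chr9:63591698-63591905 (208 bp). The third, chr9:63650300-63650512 (213 bp), was 44.6 kb upstream of Smad3 and overlapped no p300.

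At the start of Smad3 a p300 interval was called with bexarotene alone, chr9:63605742-63605899. Its center was 19 bp upstream of the gene start and its length of 158 bp was the smallest in the list. It is the only p300 interval centered within 1 kb of a coding start of Smad3. Other p300 intervals, in intron 1, were within 1 kb of a Smad3 transcript start outside the coding starts. The part of the interval at the gene start that lies upstream of the transcript is shown here on the minus strand, in the direction of transcription.
Smad3, upstream of the gene start, chr9:63605802-63605899, minus strand: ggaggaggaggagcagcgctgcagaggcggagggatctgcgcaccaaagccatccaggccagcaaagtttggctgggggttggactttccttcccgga
These 98 bases were 63.3% G and C. They held no GGGCGG, the core of an Sp1 site, on either strand. Over all bexarotene p300 intervals, GGGCGG was within 50 bp of the center in 7.09%, a window that differs from these 98 bases.

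Smad7 (chr18:75527183-75555589, plus strand), the inhibitory Smad that TGF-beta induces, differed from Smad3 in that its myogenin intervals were all close to the gene start. It had 2 in control and 1 with bexarotene, and none overlapped between conditions. The control intervals, chr18:75526066-75526237 and chr18:75526643-75526814, were centered 1.03 and 0.455 kb upstream of the start. Both overlapped a single p300 interval of 524 bp, chr18:75526158-75526681, which was called in control alone. The interval with bexarotene, chr18:75527628-75527795, was centered 528 bp past the start, in the untranslated part of exon 1, and overlapped no p300. All 3 myogenin intervals were at the smallest length of their list, and none held one of the E-box words.

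Smad7 had 6 control p300 intervals and 1 with bexarotene. Besides the one under myogenin, a control interval of 159 bp, chr18:75526998-75527156, was centered 106 bp upstream of the start. Both of these were unique to control. Within 1 kb of the gene start, p300 was thus called in control alone at Smad7, and with bexarotene alone at Smad3 and Inhba. Those 2 bexarotene intervals were both at the smallest length of their list, and an uncalled site may be a weak one. The single region shared between conditions was in intron 2, 492 bp in control, at chr18:75535208-75535699, and 158 bp with bexarotene, at chr18:75535328-75535485. Its centers lay 885 bp (control) and 838 bp (bexarotene) past a Smad7 transcript start outside the coding starts. The remaining 3 were unique to control, at 4 kb upstream, in intron 2 and 38.3 kb past the start.

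Of the 15 myogenin regions, 10 overlapped a p300 interval, 4 of them in both p300 lists and 6 in the control list alone. No share over all myogenin regions is given for these totals, and shares follow by list and by class. In control cells 7 of the 9 myogenin intervals overlapped control p300 (77.8%, 95% Wilson interval 45.3 to 93.7%), where 33.0% of all control myogenin intervals did, a share below that interval. With bexarotene 3 of 12 overlapped bexarotene p300 (25%, 8.89 to 53.2%), beside 25.6% of the whole list, and 7 of 12 overlapped p300 of either condition (58.3%; 39.8% of the whole list). Of the control overlaps, the 2 at Smad7 share 1 p300 interval. When each interval had to cover at least 50% of the other, 2 of the 9 control intervals still overlapped (22.2%), near the 18.3% of the whole list under the same rule.

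By class, the 3 myogenin regions unique to control all overlapped control p300 (20.6% of such regions genome-wide), as did 4 of the 6 shared regions (45.7%) and 3 of the 6 unique to bexarotene (28.6%). With bexarotene p300, the overlaps were 1, 2 and 1, beside 11.7%, 36.1% and 17.3% of such regions genome-wide. The 3 regions unique to bexarotene that lay over control p300 were at Tgfbr1 and, in 2 cases, Smad3. At Tgfbr1 that p300 interval was not called with bexarotene.

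An E-box within 50 bp of the center was present in 4 of 9 control myogenin intervals (44.4%, 18.9 to 73.3%; 48.1% of the whole list) and in 4 of 12 with bexarotene (33.3%, 13.8 to 60.9%; 60.6% of the whole list). Over the whole interval, rather than the central part, 9 of 12 bexarotene intervals held one (75.0%; 77.2% of the whole list) and 5 of 9 control intervals did (55.6%; 65.2%). Any CANNTG within 50 bp of the center was found in 6 of 9 control intervals (66.7%; 67.3%) and 9 of 12 with bexarotene (75.0%; 79.1%). By class, an E-box within 50 bp was in 0 of the 3 intervals unique to control (28.2% of such intervals genome-wide), in 4 of the 6 shared control intervals (67.4%) and in 2 of the 6 unique to bexarotene (52.3%). Of the 3, 2 are the Smad7 intervals, 0.577 kb apart under 1 p300 interval. All 3 were also at the smallest length of the list, a length that 54.7% of all control myogenin intervals have.

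Other sequences were counted in the 46 control p300 intervals, and for each the share in the whole list fell inside the Wilson interval of the share at the 9 genes. Within 100 bp of the center, on both strands, AP-1 (TGACTCA or TGAGTCA, which are complements of each other) was found in 12 (26.1%; 27.9% of all control p300 intervals). The Smad sequence CAGACA or GTCTAGAC was found in 8 (17.4%; 19.5%), Runx (TGTGGT) in 13 (28.3%; 31.2%) and Tead (GGAATG) in 8 (17.4%; 18.8%). The nuclear receptor word AGGTCA, which is repeated in the elements that RXR dimers bind, was in 8 (17.4%, 9.09 to 30.7%; 10.9%). At Smad3, 7 of the 19 intervals held AP-1, 4 each held Runx and Tead, 3 held AGGTCA and 2 held the Smad sequence. Such matches count letters and are not evidence of a bound factor.

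Regions called in both conditions were also compared by length. Among the 6 shared myogenin regions, 5 were longer with bexarotene (83.3%, 95% Wilson interval 43.6 to 97.0%; 45.5% of shared myogenin regions genome-wide), by 56 to 99 bp, and the exception was Fst, where the interval was 166 bp shorter. Of the 16 shared p300 regions, 2 were longer with bexarotene (12.5%, 3.50 to 36.0%; 9.88% genome-wide), 1 at Smad3 by 33 bp and 1 at Acvr2b by 40 bp. Both genome-wide shares fell inside these intervals. The other 14 p300 regions were shorter, by up to 515 bp at Acvr2b. In 7 of the 16 the bexarotene interval was at the smallest length of its list, 158 bp. That length was found in 48.9% of all bexarotene p300 intervals. At Tgfbr1 both intervals were at the smallest length, so that its difference of 1 bp is that between the smallest lengths of the lists. Tag numbers, which may affect the length of an interval as the site may, are not in the lists, and their part in these lengths was not tested.

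**Figure D5:**
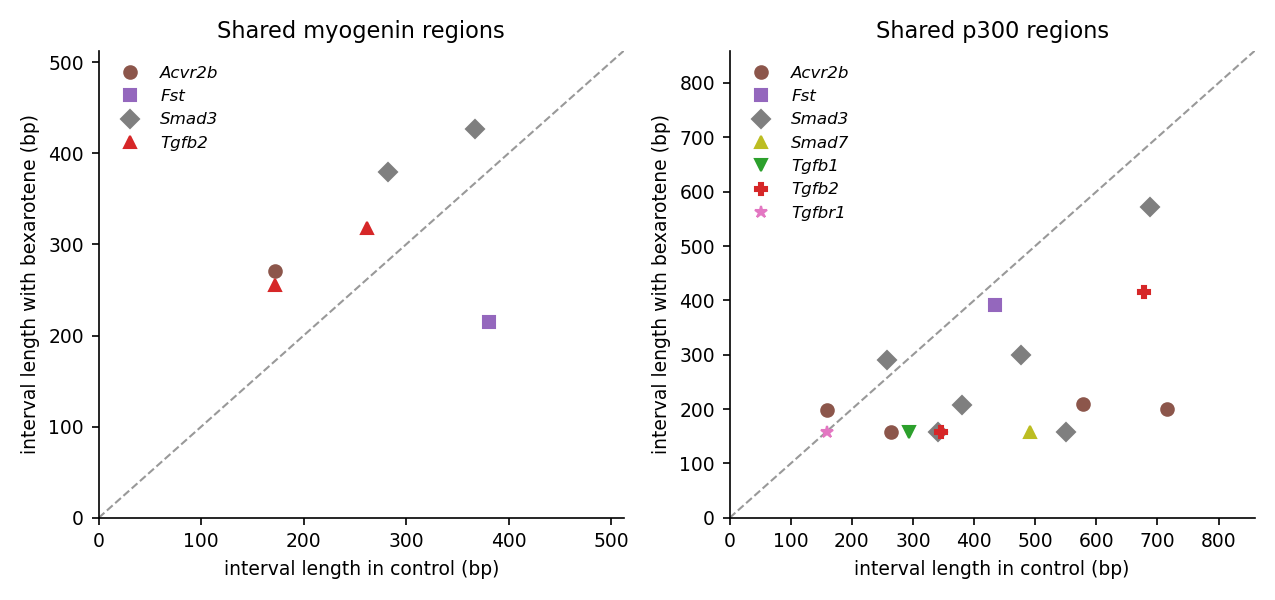
Each point is a region called in both conditions, with its length in control on the horizontal axis and with bexarotene on the vertical axis (bp), myogenin on the left and p300 on the right; the dashed line marks equal length. In the myogenin panel 5 of 6 points lie above the line and in the p300 panel 14 of 16 lie below it.

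Promoters, taken as within 1 kb of a coding start of any gene, held few of the intervals. They numbered 2 of 9 control and 2 of 12 bexarotene myogenin intervals, beside 24.2% and 12.5% of the lists, and 2 of 46 control and 2 of 18 bexarotene p300 intervals, beside 11.0% and 12.4%. These were at Smad7, Smad3, Inhba and the start of Rrp15. No interval was centered in coding sequence. For 36 of 46 control p300 intervals, and for 7 of 9 and 10 of 12 myogenin intervals, the nearest coding start belonged to the gene itself. The count was 11 of 18 for p300 with bexarotene, where 4 of the other 7 were the cluster near Exog; these counts were not set against other genes.

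The rest of the pathway was followed in 30 further genes, listed by their role. Of these 30, 18 had a control myogenin interval, 20 had one with bexarotene, 25 had a control p300 interval and 20 had one with bexarotene (60%, 66.7%, 83.3% and 66.7%), beside 32.3%, 32.9%, 53.8% and 35.2% of all protein-coding genes. More p300 intervals were listed in control than with bexarotene at 19 genes and the reverse at 2 (43.8% and 4.59% of all genes), and for myogenin at 11 and 8 (15.0% and 16.2%). Gdf11, the ligand closest to myostatin, had 8 control and 11 bexarotene myogenin intervals in its window, none of which had Gdf11 as the nearest gene. The most control p300 intervals were at Ltbp1, which holds TGF-beta in latent form in the matrix, and Ski, a corepressor of Smad proteins, with 15 each against 2 and 5 with bexarotene. All 15 at Ltbp1 were nearest to Ltbp1, but of those in the window of Ski 5 were nearest to Ski. Unlike those of Smad3, these counts were not scaled by window length. Ltbp1 spans chr17:75404908-75791852 and Ski spans chr4:154528184-154596701. Acvr1c, a type I receptor gene, and Bambi, a pseudoreceptor gene, had no interval in any list.

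The labelled cell type was checked on 7 muscle genes, the files holding no expression values. Of the 7, 5 genes (Myog, Mymk, Chrna1, Acta1 and Mybph) had myogenin intervals in both conditions, with 2 to 5 each. Over all protein-coding genes, 32.3% had a control myogenin interval and 32.9% had one with bexarotene. No share of genes with both is given. Des had 3 in control and 0 with bexarotene, and Ckm, the muscle creatine kinase gene, had none in any list.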

How the data were processed

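Per the labels and the study's methods, the authors aligned single-end reads to mm9, with BWA for myogenin and Bowtie for p300, used Picard to remove duplicates, and ran HOMER peak calling library by library. The 4 deposited lists hold chromosome, start and end in bp, with no tag counts or scores, so the threshold of the caller could not be varied, and their starts count from 0. Positions are printed from 1. The reference used here has the chromosome lengths of mm9. Gene bodies, coding starts and exons came from GENCODE vM1. Overlap meant at least 1 bp, and promoters lay within 1 kb of a coding start. The 95% Wilson intervals of shares reflect counting error alone. The 30 further genes were listed by role. Those with most or no intervals were named first, and the other observations name further genes outside that rule. Mymk was matched as Tmem8c. Intervals given with coordinates are all myogenin intervals, p300 intervals at a start of the 9 genes, those overlapping myogenin and the longest of each gene and list. Genes and lists were chosen with earlier results of these data known. Counting was done in Python 3.11.15 with pysam 0.24.0 and was tested on simulated intervals. Alternatives changed the window, overlap rule, interval length, start catalog and motif window. Some sequences and a neighboring gene are not reported here.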

Additional observations from a re-analysis of the deposited data

How the results depend on the processing

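The 27 results were recomputed under alternatives that gave 87 values, of which 36 moved. A count was taken as moved when it changed by more than 1.5 times, and a share when it left the 95% Wilson interval of the reported share, which is wide at these numbers; the other 51 values stayed within these limits. With the intervals at the smallest length of each list left out, the counts at the 9 genes were 4 and 7 for myogenin and 30 and 9 for p300, control first. Classed again, myogenin regions unique to control then numbered 0 and those unique to bexarotene 3, shared p300 regions 8 and those unique to bexarotene 1. Of the myogenin regions first unique to bexarotene, 5 of 6 were left out, and 2 shared regions took that class. Both p300 regions first unique to bexarotene were left out, and the 1 counted was a shared region of Acvr2b that lost its control interval. The E-box share of control myogenin intervals was 75.0%. Without Smad3, a choice made after seeing the data, there were 7 control and 7 bexarotene myogenin, 27 control p300 and 11 bexarotene p300 intervals, with 3 myogenin regions unique to bexarotene and 17, 10 and 1 p300 regions in the control, shared and bexarotene classes. A 25 kb window gave 11 bexarotene p300 intervals, 3 shared myogenin and 9 shared p300 regions, and 27 and 24 myogenin intervals at the further 30 genes. Intervals nearest to the gene itself gave 11 for bexarotene p300 and 9 shared p300 regions. A reciprocal overlap of 50% gave 10 shared p300 regions, 8 unique to bexarotene, and a 22.2% share of control myogenin with p300. Starts of all transcripts placed 4 bexarotene myogenin, 5 control p300 and 5 bexarotene p300 intervals at promoters, and a 2.5 kb limit placed 5 control p300 intervals there. The E-box share with bexarotene was 75.0% both over the whole interval and for any CANNTG, and 7 of the 12 bexarotene myogenin intervals at the 9 genes (58.3%) overlapped p300 of either condition. Within 50 bp the Smad, Tead and AGGTCA shares of control p300 intervals were 6.52% each (10.2%, 10.8% and 5.39% of the whole list), and those of AP-1 and Runx were 17.4% each (18.6% and 18.5%). The cause of these shifts was not tested beyond the fewer intervals or wider rule that each alternative brings. No paired analysis was possible because each condition has 1 library. Depth is unknown, so an uncalled site may be a weak one.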

Other observations

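The windows of other genes of the wider pathway also held intervals. Ltbp3 had 2 control and 6 bexarotene myogenin intervals with 10 and 3 p300 intervals, of which 3 control p300 intervals were nearest to Ltbp3. Ltbp2 had 4 and 4 with 9 and 4, of which 4 control p300 intervals were nearest to Ltbp2. Fstl1, a follistatin-like gene, had 1 and 0 with 9 and 3, all nearest to Fstl1. Dcn, which encodes the TGF-beta-binding proteoglycan decorin, had 5 control p300 intervals, 2 of them nearest to Dcn, and 0 with bexarotene. Among receptors, Acvr1 had 10 control and 4 bexarotene p300 intervals, 6 and 3 of them nearest to Acvr1, Tgfbr2 had 5 and 2, and Acvr1b had 4 control myogenin intervals and 0 with bexarotene, all 4 nearest to Nr4a1 and none to Acvr1b. Tgif1, a corepressor gene, had 2 and 3 myogenin intervals, each nearest to Tgif1 itself, and 8 and 2 p300 intervals. The median protein-coding gene had 0 myogenin intervals in each condition and 1 control and 0 bexarotene p300 intervals. These values come from 1 library per condition and were not tested.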
